A study of Fundulus heteroclitus with 53 samples.

Results

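Liver RNA of killifish (Fundulus heteroclitus) from New Bedford Harbor (NBH) and Scorton Creek (SC) was compared for 5 named genes, ccn1, edil3a, layna, osmr and bace2. They were picked by symbol out of 34089 genes in the count tables and were chosen by their large differences in level between NBH and SC fish in earlier results on these same livers, with no stated threshold. The NBH to SC differences given here are therefore descriptions and carry no test. All 5 were among the 13609 genes with enough counts to be tested. The choice was not made on the response to hypoxia averaged over both populations. Only that response is tested for these genes, on the same fish. It is not free of the choice where the same fish make both the response and a population gap, as for ccn1, edil3a and layna.

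The 6 groups were NBH control, NBH mild hypoxia, NBH severe hypoxia, SC control, SC mild hypoxia and SC severe hypoxia, with 5 fish in each and 1 liver library per fish. Mild hypoxia was 10% oxygen and severe hypoxia 5% oxygen, both for 6 h in closed chambers. Control fish stayed in normoxia on the benchtop, so a response to hypoxia cannot be told apart from an effect of the chamber. All fish were juveniles about 6 months old, hatched and raised in the laboratory from wild parents of their own population, and only a few parents were used per population. Wild killifish at NBH live with pollution by polychlorinated biphenyls and tolerate these compounds, and SC served as the comparison site. Because the fish of a population share few parents, a difference between NBH and SC fish cannot be told apart from a difference between these families.

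Total counts per library ran from 4955114 to 23849931, with group medians of 8179471 in NBH control, 16942104 in NBH mild, 17879044 in NBH severe, 12755707 in SC control, 7393074 in SC mild hypoxia and 18906362 in SC severe hypoxia. Levels are given as CPM, the counts of a gene per 1e6 counts of its library after TMM scaling between libraries. The tissue label was checked with 20 hepatocyte genes. The 13 of them named in the tables all had a median of at least 1 CPM, and together they made up between 59720 CPM in the lowest fish and 98720 CPM in the highest. The study left out 1 NBH severe hypoxia fish without giving its replicate number. All 30 fish were kept here, and leaving out NBH severe hypoxia replicate 5, the smallest library, changed no call for the 5 genes.

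The 5 genes act at the cell surface and in the matrix around cells. CCN1 is a secreted matricellular protein that binds integrins and heparan sulfate. In mammals its gene is an immediate-early gene and a standard target of the transcriptional coactivator YAP with TEAD factors. EDIL3 is a secreted matrix protein with EGF-like repeats and discoidin domains that binds integrins, and MFGE8 is its close relative. Layilin, the product of layna, is a membrane lectin that binds hyaluronan in mammals. OSMR pairs with the shared subunit encoded by il6st to form the oncostatin M receptor, which signals through JAK kinases and STAT factors. BACE2 is a membrane aspartyl protease related to the beta-secretase BACE1, and in zebrafish it acts in pigment cells.

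In the assembly MU-UCD_Fhet_4.1 the genes lie on 4 chromosomes. The annotation places ccn1 on chromosome 9 at 4823889 to 4826595 and layna on chromosome 11 at 21747481 to 21823474. Both osmr, at 13060083 to 13076454, and edil3a, at 28518321 to 28703482, are on chromosome 12, far from each other. The gene bace2 is on chromosome 18 at 11544584 to 11566381. All 5 are annotated as protein-coding genes, and the tables hold 1 count per gene, so isoforms are not separated.

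NBH fish had lower ccn1 and edil3a and higher layna, osmr and bace2 than SC fish in group means at all 3 oxygen levels. The fish of both populations did not overlap for 4 of the 5 genes in control (all but edil3a), for 3 in mild hypoxia (ccn1, edil3a and osmr) and for 4 in severe hypoxia (all but layna). Such separation was seen in 4.45% of the tested genes in control, 3.73% in mild and 5.31% in severe hypoxia, and since the genes were picked for this difference nothing is read from the comparison.

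**Figure D1:**
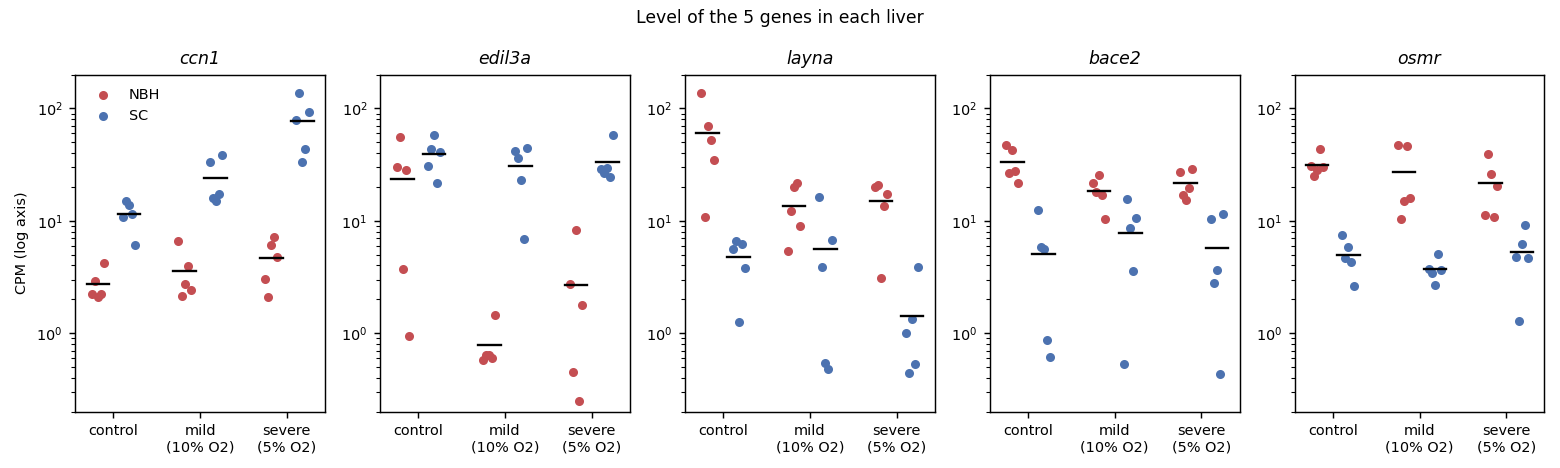
Level of each of the 5 genes in every liver, in CPM on a log axis, by oxygen level, with NBH fish (red) left of SC fish (blue), 1 point per fish and a black bar at the arithmetic mean of 5 fish. ccn1 and osmr stay apart between populations at every oxygen level, edil3a parts only under hypoxia, and layna overlaps in mild and severe hypoxia.

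The lowest ccn1 levels were in NBH fish and the highest in SC fish under severe hypoxia. NBH control fish had 2.22, 2.90, 2.08, 2.25 and 4.22 CPM of ccn1, NBH mild hypoxia fish 6.54, 2.15, 2.73, 3.99 and 2.41 CPM, and NBH severe hypoxia fish 3.06, 2.11, 6.05, 7.16 and 4.79 CPM. SC control fish had 10.75, 14.87, 13.92, 11.55 and 6.13 CPM of ccn1, SC mild hypoxia fish 33.2, 15.9, 14.9, 17.2 and 38.4 CPM, and SC severe hypoxia fish 78.5, 136.9, 33.1, 43.15 and 92.7 CPM. At each oxygen level every NBH fish was below every SC fish. Within SC, every fish in mild and in severe hypoxia was above every control fish, although the lowest mild and the highest control fish were level at the printed precision, while NBH hypoxia fish overlapped NBH control fish.

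The gap in ccn1 widened with falling oxygen. Group means were 2.73 ± 0.89 CPM in NBH and 11.4 ± 3.4 CPM in SC control fish (SD, n = 5 each), 3.57 ± 1.81 and 23.9 ± 11.02 CPM in NBH and SC mild hypoxia, and 4.63 ± 2.08 and 76.9 ± 41.6 CPM in NBH and SC severe hypoxia. The log2 difference, NBH minus SC, was -2.04 (standard error 0.41) in control, -2.74 (0.40) in mild and -4.05 (0.42) in severe hypoxia. The change of this difference was -0.70 (0.56) between mild hypoxia and control and -2.00 (0.56) between severe hypoxia and control. With log total count as covariate the mild change was -1.30. In the order of group means, the SC severe, mild and control groups came above the NBH severe, mild and control groups. The NBH groups overlapped each other and differed by less than 1 SD from one to the next.

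Averaged over populations ccn1 rose under hypoxia, mostly through the SC fish that also widened the gap. This rise is therefore not free of the choice. In severe hypoxia ccn1 was higher by 1.74 on the log2 scale (standard error 0.28, edgeR adjusted p 2.99e-05). The p-value is from the quasi-likelihood test, adjusted over all tested genes by Benjamini-Hochberg. Above their own control mean were 4 of 5 NBH fish and 5 of 5 SC fish. The change in mild hypoxia was 0.71 (0.28, edgeR adjusted p 0.0481). With each fish dropped in turn that p-value lay between 0.0305 and 0.129, and it was over the threshold for 15 of the 30 fish. It was 0.0513 with no filter on low counts and 0.0833 with log total count as covariate. Within populations, the fitted responses to mild and severe hypoxia were 0.36 (0.42) and 0.74 (0.41) in NBH and 1.06 (0.38) and 2.74 (0.39) in SC.

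The gene edil3a was the member whose population gap was small in control and large under hypoxia. NBH control fish had 30.1, 55.1, 3.71, 28.1 and 0.938 CPM of edil3a, against 30.75, 43.2, 57.8, 21.55 and 41.0 CPM in SC control fish. Thus 3 NBH control fish lay within the SC range and 2, replicates 3 and 5, lay below it. NBH mild hypoxia fish had 0.574, 0.638, 0.639, 0.599 and 1.45 CPM, against 41.8, 36.2, 23.1, 6.89 and 44.0 CPM in SC mild hypoxia fish. NBH severe hypoxia fish had 2.76, 0.447, 8.25, 0.250 and 1.77 CPM, against 28.96, 26.7, 29.4, 24.5 and 58.1 CPM in SC severe hypoxia fish. Under both hypoxia levels every NBH fish was below every SC fish.

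Low edil3a values rest on few reads. NBH mild hypoxia fish had 10 to 21 edil3a counts and NBH severe hypoxia fish 5 to 184, against 58 to 713 in SC mild hypoxia fish and 505 to 1192 in SC severe hypoxia fish. Of the 15 NBH fish, 7 were under 1 CPM, and of the 15 SC fish none was, with 6.89 CPM as the lowest. Group means were 23.6 ± 22.2 CPM in NBH and 38.9 ± 13.7 CPM in SC control, 0.780 ± 0.375 and 30.4 ± 15.4 CPM in NBH and SC mild, and 2.70 ± 3.27 and 33.5 ± 13.9 CPM in NBH and SC severe hypoxia (SD, n = 5 each).

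The log2 difference in edil3a, NBH minus SC, was -0.73 (standard error 0.68) in control, -5.30 (0.85) in mild and -3.58 (0.76) in severe hypoxia. It changed by -4.56 (1.05) between mild hypoxia and control and by -2.85 (0.99) between severe hypoxia and control. Without NBH control replicate 2, the highest fish of that group, the control difference was -1.32 and the changes were -3.97 and -2.27. Without NBH severe hypoxia replicate 3, the highest of its group, the severe difference was -4.71 and its change from control -3.98. In the order of group means the NBH hypoxia groups were the lowest, but every group overlapped the next and was within 1 SD of it. Below every NBH control fish were 4 of 5 NBH fish in mild and 2 of 5 in severe hypoxia.

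Averaged over populations edil3a fell by 2.63 in mild hypoxia (standard error 0.53, edgeR adjusted p 0.000446) and by 1.64 in severe hypoxia (0.50, edgeR adjusted p 0.0105). Both passed whichever of the 30 fish was dropped. Both rest mostly on the low NBH hypoxia fish that also make the population gap, so they are not free of the choice. The severe response did not pass with log total count as covariate (-1.61, standard error 0.69, edgeR adjusted p 0.0839). Fitted responses were -4.91 (0.84) and -3.06 (0.75) in NBH mild and severe hypoxia against -0.35 (0.67) and -0.21 (0.67) in SC fish at the same oxygen levels. All 5 NBH fish at each hypoxia level were below the NBH control mean on the log scale. In SC, 3 of 5 fish in mild and 4 of 5 in severe hypoxia were below the SC control mean.

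**Figure D2:**
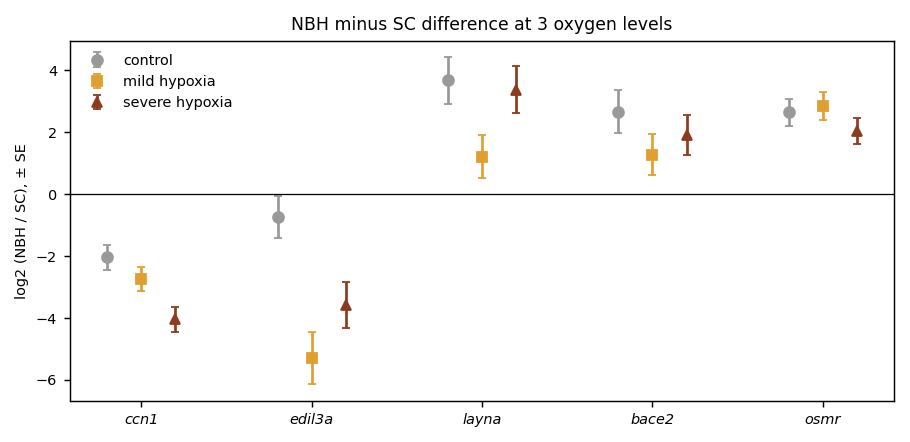
Log2 difference between populations, NBH minus SC, for each gene in control (grey circles), mild hypoxia (orange squares) and severe hypoxia (brown triangles), with bars of 1 standard error from the edgeR fit. ccn1 moves away from 0 stepwise to -4.05, edil3a starts near 0 at -0.73, and osmr stays between 2.04 and 2.85.

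The hyaluronan receptor gene layna was high in NBH control fish and varied widely among fish. NBH control fish had 136.4, 10.9, 69.0, 52.5 and 34.4 CPM of layna, against 5.62, 6.66, 1.25, 6.21 and 3.83 CPM in SC control fish. NBH mild hypoxia fish had 5.39, 12.2, 19.8, 21.6 and 8.97 CPM, against 16.4, 3.84, 0.541, 0.475 and 6.76 CPM in SC mild hypoxia fish. NBH severe hypoxia fish had 20.02, 20.7, 3.09, 13.4 and 17.4 CPM, against 1.004, 0.443, 1.34, 0.534 and 3.85 CPM in SC severe hypoxia fish. The populations were apart in control, overlapped in mild hypoxia through SC replicates 1 and 5, and overlapped in severe hypoxia only through NBH replicate 3 and SC replicate 5.

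Means of layna were 60.6 ± 47.6 CPM in NBH and 4.71 ± 2.22 CPM in SC control, 13.6 ± 7.0 and 5.61 ± 6.58 CPM in NBH and SC mild, and 14.9 ± 7.2 and 1.43 ± 1.40 CPM in NBH and SC severe hypoxia (SD, n = 5 each). The log2 difference, NBH minus SC, was 3.68 (standard error 0.75) in control, 1.22 (0.69) in mild and 3.38 (0.76) in severe hypoxia. Relative to control it changed by -2.46 (0.99) in mild and by -0.30 (1.02) in severe hypoxia, and the gap was smallest in mild hypoxia. Without SC mild hypoxia replicate 1 the mild difference was 2.20 and its change from control -1.47. Without SC severe hypoxia replicate 5 the severe difference was 4.16, and the sign of its change from control turned to 0.49, as it did without NBH control replicate 1 (0.24). In the order of group means NBH control was followed by NBH severe and mild hypoxia and then by SC mild hypoxia, control and severe hypoxia, and each group overlapped the next.

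Averaged over populations layna fell by 1.88 in severe hypoxia (standard error 0.51, edgeR adjusted p 0.00471), and all 5 fish of each population were below their own control mean on the log scale. The high NBH control fish and the low SC severe hypoxia fish behind this fall also make the population gaps, so it is not free of the choice. In mild hypoxia the averaged change was -0.92 (0.49, edgeR adjusted p 0.143) and did not pass. It was -1.41 with an edgeR adjusted p of 0.0289 without SC mild hypoxia replicate 1. Fitted responses in mild and severe hypoxia were -2.16 (0.69) and -2.03 (0.69) in NBH and 0.31 (0.71) and -1.73 (0.75) in SC.

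Another gene, LOC110367183, lies inside the span of layna, on chromosome 11 at 21781380 to 21803851, and had a median of 1128 CPM. The library kit marked strand, but whether counting used it is not given in the sources used here, so a part of the layna counts could belong to reads of the other gene, or the reverse. Only the spans of the genes were compared and not their exons, so this was not tested. LOC110367183 itself differed between NBH and SC by 0.51, 0.61 and 0.53 in control, mild and severe hypoxia, with edgeR adjusted p-values of 0.306, 0.189 and 0.148. The span of edil3a holds 1 annotated noncoding gene with 9 counts in all libraries together, and no annotated gene overlaps ccn1, osmr or bace2.

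The receptor gene osmr had the steadiest population difference of the 5 genes. NBH control fish had 30.8, 24.8, 28.35, 43.6 and 30.01 CPM of osmr, against 7.44, 4.63, 5.89, 4.31 and 2.603 CPM in SC control fish. NBH mild hypoxia fish had 47.0, 10.4, 14.9, 46.2 and 15.9 CPM, against 3.69, 3.46, 2.70, 5.11 and 3.61 CPM in SC mild hypoxia fish. NBH severe hypoxia fish had 11.2, 39.2, 25.99, 10.9 and 20.2 CPM, against 4.73, 1.29, 6.27, 9.22 and 4.63 CPM in SC severe hypoxia fish. The lowest of the 15 NBH fish, at 10.4 CPM, was above the highest of the 15 SC fish, at 9.22 CPM. NBH fish under hypoxia were spread more than NBH control fish, with the highest 4.53 times the lowest in mild hypoxia, 3.604 times in severe hypoxia and 1.76 times in control.

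Means of osmr were 31.5 ± 7.1 CPM in NBH and 4.98 ± 1.81 CPM in SC control, 26.9 ± 18.1 and 3.72 ± 0.87 CPM in NBH and SC mild, and 21.5 ± 11.8 and 5.23 ± 2.88 CPM in NBH and SC severe hypoxia (SD, n = 5 each). The log2 difference, NBH minus SC, was 2.64 (standard error 0.45) in control, 2.85 (0.46) in mild and 2.04 (0.43) in severe hypoxia. Its change from control was 0.21 (0.61) in mild and -0.60 (0.60) in severe hypoxia, each about its standard error or less, and the mild change turned to -0.09 without NBH mild hypoxia replicate 1 and to -0.08 without replicate 4. In the order of group means the NBH control, mild and severe groups came above the SC severe, control and mild groups, with the one break between groups that did not overlap lying between NBH severe and SC severe hypoxia. Within each population neighbouring groups were within 1 SD of each other. Averaged over populations the response of osmr was -0.33 (0.31) in mild hypoxia and -0.25 (0.30) in severe hypoxia, with edgeR adjusted p-values of 0.415 and 0.528.

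For the protease gene bace2, SC group means were lower, and SC fish varied far more among themselves than NBH fish on a ratio scale. NBH control fish had 47.4, 26.65, 42.9, 27.4 and 21.7 CPM of bace2, against 12.5, 5.89, 5.62, 0.862 and 0.613 CPM in SC control fish. NBH mild hypoxia fish had 21.7, 18.05, 25.7, 17.1 and 10.3 CPM, against 0.528, 15.6, 8.65, 3.56 and 10.5 CPM in SC mild hypoxia fish. NBH severe hypoxia fish had 27.4, 16.8, 15.15, 19.4 and 29.1 CPM, against 10.3, 2.81, 3.64, 0.437 and 11.4 CPM in SC severe hypoxia fish. Each SC group held at least 1 fish under 1 CPM, 4 of 15 SC fish in all, and the next SC fish was at 2.81 CPM. The lowest of the 15 NBH fish had 10.3 CPM. The highest fish had 2.18, 2.50 and 1.92 times the level of the lowest in NBH control, mild and severe hypoxia, against 20.4, 29.6 and 26.1 times in SC control, mild and severe hypoxia. The lowest SC fish had only 4, 9 and 9 bace2 counts in control, mild and severe hypoxia, so the SC ratios are imprecise.

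Means of bace2 were 33.2 ± 11.2 CPM in NBH and 5.09 ± 4.83 CPM in SC control, 18.6 ± 5.7 and 7.77 ± 5.92 CPM in NBH and SC mild, and 21.6 ± 6.3 and 5.73 ± 4.86 CPM in NBH and SC severe hypoxia (SD, n = 5 each). The log2 difference, NBH minus SC, was 2.67 (standard error 0.68) in control, 1.28 (0.65) in mild and 1.91 (0.65) in severe hypoxia, and it changed from control by -1.39 (0.92) and -0.77 (0.91). Without SC control replicate 1, the highest of its group, the control difference was 3.31 and the changes were -2.03 and -1.41. The averaged hypoxia response was -0.14 (0.46) in mild and -0.24 (0.46) in severe hypoxia, with edgeR adjusted p-values of 0.838 and 0.696, and its sign turned without TMM scaling (0.145 and 0.172). Group means ran from NBH control over NBH severe and mild to SC mild, severe and control, each overlapping the next. All 10 NBH hypoxia fish were below the NBH control mean on the log scale, while 4 of 5 SC fish in mild and 3 of 5 in severe hypoxia were above the SC control mean.

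Over the 5 genes, the averaged response to mild hypoxia passed the test in 2, ccn1 higher and edil3a lower, and the response to severe hypoxia in 3, ccn1 higher and layna and edil3a lower. Of all tested genes 35.6% passed in mild hypoxia and 38.2% in severe hypoxia, so the counts among the 5 genes are near the background. In mild hypoxia 2456 genes were higher and 2389 lower, and in severe hypoxia 2770 were higher and 2432 lower. Without TMM scaling these were 4840 and 1120 in mild and 6161 and 983 in severe hypoxia, as the median of all genes shifted to 0.30 and 0.43 (log2), and ccn1, edil3a and layna kept their directions.

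**Figure D3:**
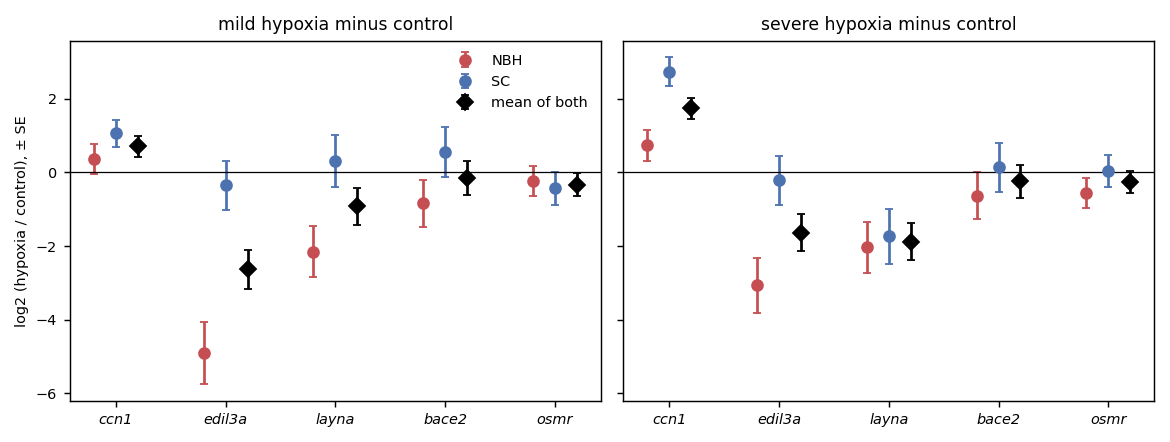
Log2 response to mild hypoxia (left) and severe hypoxia (right) against control for each gene, in NBH (red), in SC (blue) and as the mean of both (black diamonds, the tested value), with bars of 1 standard error from the edgeR fit. In mild hypoxia edil3a falls in NBH (-4.91) and stays near 0 in SC (-0.35), and in severe hypoxia ccn1 is raised more in SC (2.74) than in NBH (0.74).

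Set side by side, the fitted NBH minus SC differences depended on oxygen to unlike degrees. That of osmr ranged from 2.04 to 2.85, with standard errors of 0.43 to 0.46. That of ccn1 was largest in size at 5% oxygen, and that of edil3a was far larger in size at 10% and 5% oxygen than in control, while those of layna and bace2 were smallest at 10% oxygen with changes that carried standard errors of 0.99 and 0.92. As a background, the change of the NBH minus SC difference was tested over all 13609 genes. With edgeR 0 genes (0%) passed for mild hypoxia and 1 gene (0.00735%) for severe hypoxia, LOC105934894, which is named only because it was the 1 gene to pass, and 1046 and 1491 genes had an unadjusted p under 0.05. With DESeq2 36 and 69 genes passed, and with edgeR on 29 fish, without NBH severe hypoxia replicate 5, 1 and 2 genes. None of the 5 genes was among those passing with edgeR, and edil3a was among the 36 passing with DESeq2 for mild hypoxia. The 5 genes were picked on these same fish, so neither outcome is read as a test of them.

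Calls between the populations were few among related genes, as they were among all tested genes. Of the tested genes 1.62% were called between NBH and SC in control, 1.25% in mild and 7.32% in severe hypoxia. Among 17 other genes of the CCN and YAP/TEAD list that could be tested, 0, 0 and 2 were called in control, mild and severe hypoxia, and both, nf2b at 0.90 (standard error 0.24, edgeR adjusted p 0.021) and tead3a at 0.84 (0.26, edgeR adjusted p 0.0461), were higher in NBH. Under hypoxia, averaged over populations, this list had 5 lower and 1 higher gene in mild and 4 lower and 0 higher in severe hypoxia, with list medians of -0.22 and -0.25 where the medians of all genes were 0.01 and 0.03. The coactivator gene yap1 fell by 1.08 in mild (0.23, edgeR adjusted p 0.000692) and by 0.9996 in severe hypoxia (0.23, edgeR adjusted p 0.00107), while ccn1 rose.

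In the EDIL3 and integrin list 13 other genes were tested, with 1, 1 and 2 called between populations in control, mild and severe hypoxia. Averaged over populations 1 was higher and 4 were lower in mild and 2 higher and 4 lower in severe hypoxia, with list medians of -0.50 and -0.40. The EDIL3 relative mfge8b was lower in NBH in mild (-1.17, standard error 0.29, edgeR adjusted p 0.0403) and severe hypoxia (-0.96, 0.29, edgeR adjusted p 0.0391), and its control difference of -0.69 (0.29) had an edgeR adjusted p of 0.268. NBH mild hypoxia fish had 5.91, 4.24, 8.14, 5.09 and 5.79 CPM of mfge8b, all below the 12.6, 15.2, 14.3, 10.7 and 12.9 CPM of SC mild hypoxia fish. NBH severe hypoxia fish had 7.84, 3.25, 9.68, 9.62 and 1.77 CPM, against 10.9, 9.38, 13.7, 16.99 and 13.4 CPM in SC severe hypoxia fish, and these ranges overlapped. Averaged over populations mfge8b fell in mild hypoxia by 0.70 (0.21, edgeR adjusted p 0.00988). Larger falls there were those of nrp2a (-1.03, edgeR adjusted p 0.000483) and itgb2 (-1.02, edgeR adjusted p 0.000644). In severe hypoxia itga9 rose by 1.17 (edgeR adjusted p 6.43e-05). Other calls were f5, a coagulation factor with discoidin domains, at 0.65 in control (edgeR adjusted p 0.00866), and the integrin gene itgb1a at 0.63 in severe hypoxia (edgeR adjusted p 0.0186).

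The hyaluronan list had 13 other tested genes, with 0 called between populations in control, 0 in mild and 2 in severe hypoxia. The hyaluronan receptor gene cd44b was higher in NBH severe hypoxia fish by 1.65 (standard error 0.33, edgeR adjusted p 0.00373), and lyve1b, another hyaluronan receptor gene, was lower by 2.23 (0.66, edgeR adjusted p 0.0358), both at low levels. Mean cd44b was 1.23 CPM in NBH and 0.395 CPM in SC, and mean lyve1b was 0.0908 CPM in NBH and 0.517 CPM in SC severe hypoxia fish. In mild hypoxia the list had 0 higher and 2 lower genes averaged over populations, in severe hypoxia 2 higher and 2 lower, with list medians of 0.14 and 0.03. Averaged over populations cd44b fell under mild (-1.36) and severe hypoxia (-1.34), with edgeR adjusted p-values of 0.00011 and 6.53e-05. The larger fall in mild hypoxia was that of hapln4, at -4.71 (1.65, edgeR adjusted p 0.0276). Mean hapln4 was 21.7 ± 29.6 CPM in NBH control and 0.0215 CPM in NBH mild hypoxia fish (SD, n = 5 each). In SC it was 42.9 ± 45.9 CPM in control and 41.9 ± 51.7 CPM in mild hypoxia. The averaged fall thus came from the NBH fish, and the NBH control SD was above the mean. The layilin paralog laynb did not pass between populations, at 0.19, -0.62 and 0.46 in control, mild and severe hypoxia (edgeR adjusted p 0.906, 0.53 and 0.522).

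In the cytokine receptor and JAK-STAT list 20 other genes were tested, and 0, 0 and 1 were called between populations. Averaged over populations 2 were higher and 3 lower in mild and 5 higher and 2 lower in severe hypoxia, with list medians of 0.08 and 0.04. The called gene was ptpn6, a tyrosine phosphatase gene that dampens cytokine signaling and is strongest in blood cells, at 1.59 in severe hypoxia (standard error 0.44, edgeR adjusted p 0.0264). Averaged over populations socs2, a feedback inhibitor gene, fell by 2.34 in severe hypoxia (0.43, edgeR adjusted p 0.000117) and cntfr, the ciliary neurotrophic factor receptor gene, rose by 1.24 (0.14, edgeR adjusted p 1.68e-07). Of 17 other tested genes in the secretase list, 0 were called between populations at any oxygen level, while 7 were higher and 1 lower in mild and 5 higher and 2 lower in severe hypoxia averaged over populations, with list medians of 0.16 and 0.07. The secretase substrate relative aplp1 fell by 1.70 in severe hypoxia (0.29, edgeR adjusted p 5.48e-05), and the gamma-secretase subunit genes ncstn and aph1b rose by 0.90 (0.20, edgeR adjusted p 0.000933) and 0.81 (0.15, edgeR adjusted p 0.000192).

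Genes next to the 5 on their chromosomes were looked at in turn, taking the nearest tested gene by start position on each side. For layna the gene so found on the higher side is LOC110367183, which lies inside its span, and none beyond its end was looked at. Next to ccn1, on chromosome 9 at 4771584 to 4812499, znhit6, which encodes a factor for box C/D small nucleolar ribonucleoprotein assembly, was lower in NBH in severe hypoxia by 2.90 (standard error 0.53, edgeR adjusted p 0.00196). NBH severe hypoxia fish had 0.937, 1.09, 3.68, 4.46 and 0 CPM of znhit6, against 15.3, 26.5, 12.7, 15.5 and 11.95 CPM in SC severe hypoxia fish, and the populations did not overlap. In mild hypoxia the znhit6 difference was 0.30 (0.50, edgeR adjusted p 0.856), unlike that of ccn1. The other neighbour of ccn1, ddah1, had edgeR adjusted p-values of 0.598, 0.894 and 0.316 in control, mild and severe hypoxia.

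Next to layna, LOC105919840 was higher in NBH by 1.31 in control (standard error 0.22, edgeR adjusted p 0.0015) and by 0.93 in mild hypoxia (0.22, edgeR adjusted p 0.0295), with 0.67 in severe hypoxia (0.22, edgeR adjusted p 0.0599). Next to osmr, sb:cb288 was higher in NBH by 2.72 in severe hypoxia (0.71, edgeR adjusted p 0.0197), at means of 1.98 CPM in NBH and 0.294 CPM in SC fish. Its difference was 2.76 in control (0.80, edgeR adjusted p 0.0696) and 0.20 in mild hypoxia (0.82, edgeR adjusted p 0.947). The neighbours of bace2, pcp4b and atm, and those of edil3a, both LOC genes, did not pass at any oxygen level, nor did LOC110367183 or the other neighbour of osmr.

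**Figure D4:**
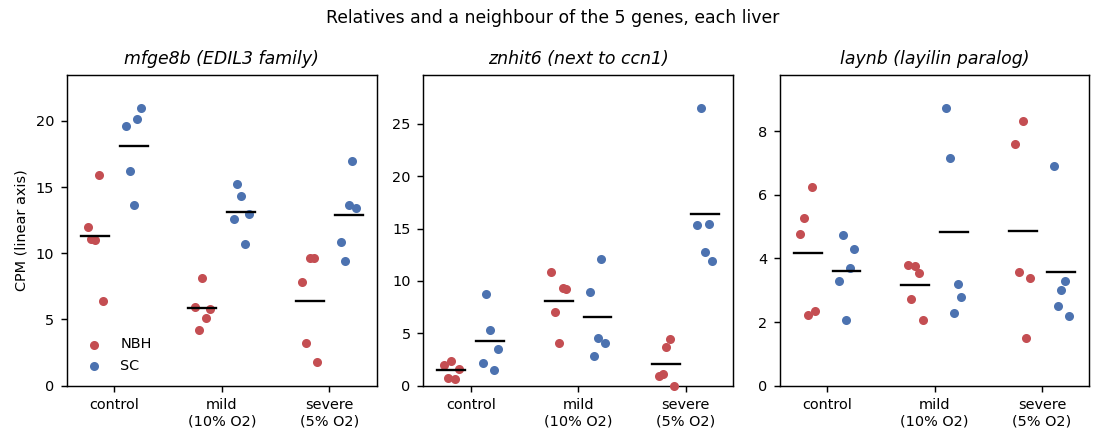
CPM on linear axes in every liver for mfge8b, znhit6 and laynb by oxygen level, with NBH fish (red) left of SC fish (blue) and a black bar at the mean of 5 fish. mfge8b is lower in every NBH than in every SC fish in mild hypoxia, znhit6 parts in severe hypoxia with 1 NBH fish at 0 CPM, and laynb overlaps throughout.

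The 5 genes showed little joint variation among fish of the same group. After each group mean was subtracted, Pearson's r between any pair of them over 30 fish ranged from -0.074 to 0.125, and Spearman's rho reached 0.281 for layna and bace2. The named genes most like them on this scale, out of 8807, were ppp4r1l for ccn1 (r 0.64), adam28 for edil3a (0.68), rps19bp1 for layna (0.68), dctn1b for osmr (0.61) and tpte for bace2 (0.66). Without subtracting group means the closest were the growth hormone receptor gene ghra for ccn1 (0.825), mfge8b for edil3a (0.76), tcima for layna (0.81), nuak1b for osmr (0.83) and fam172a for bace2 (0.74), where group differences count too. On that scale nuak1b, an AMPK-related kinase gene, was also among the closest to layna (0.805) and had the lowest r of all with ccn1 (-0.83). These values are the extremes of many and are given as a description.

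Most stellate cell and leukocyte markers were lower under hypoxia. Of all 13609 tested genes 2389 were lower in mild and 2432 in severe hypoxia. Of 8 tested stellate cell and fibroblast markers, 6 were lower and 0 higher in mild hypoxia and 7 lower and 0 higher in severe hypoxia, averaged over populations. Their summed level, over the 11 of 13 markers in the tables, was 120.6 to 185.3 CPM in NBH control, 38.5 to 65.6 in NBH mild, 30.9 to 62.7 in NBH severe, 121.4 to 284.4 in SC control, 30.3 to 57.9 in SC mild hypoxia and 25.94 to 41.4 in SC severe hypoxia. Of 8 leukocyte markers 5 were lower in mild and 8 in severe hypoxia. Between populations 0 of the stellate cell markers were called, and 4 of the leukocyte markers were higher in NBH in severe hypoxia. Of 5 tested biliary epithelium markers 1 was higher and 2 were lower at each hypoxia level. The summed biliary level, over 6 of 8 markers, was 703.5 to 1097 CPM in NBH control and 723.3 to 1042 in SC control. In mild hypoxia it was 310.3 to 632 CPM in NBH and 258.7 to 361.5 in SC. In severe hypoxia it was 368.2 to 563 CPM in NBH and 249.7 to 399.3 in SC. Of 13 tested hepatocyte markers 6 were higher and 1 lower in mild, and 5 were higher and 3 lower in severe hypoxia. Of 8 tested endothelium markers 1 was higher and 1 lower in mild and 0 higher and 2 lower in severe hypoxia, of 4 tested erythroid markers 2 were lower in mild and 3 in severe hypoxia, and of 6 tested exocrine pancreas markers 0 were called at either level. The summed leukocyte level in severe hypoxia, over 9 of 12 markers, was 18.3 to 33.2 CPM in NBH and 5.06 to 22.2 CPM in SC fish. No stellate cell or leukocyte marker in the tables was at 0 in all libraries. In bulk liver, fewer cells of a type and less RNA per cell cannot be told apart, and the part of these cells in the values of the 5 genes was not tested.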

How the data were processed

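For 30 livers the authors sequenced single ends of 50 bp from a stranded kit, trimmed them with Trimmomatic, mapped them with STAR to assembly MU-UCD_Fhet_4.1 and took counts per gene with HTSeq-count, and the deposited files hold these counts as whole numbers, not normalized. The strand setting of the counting is not given in the sources used here. None of the files has a row of unassigned reads. Bisulfite libraries were not analysed here. Of the symbols, 32227 of 34089 are in the RefSeq gene table, which gave all positions.

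The filter on low values was filterByExpr over the 6 groups, and 13609 genes holding 99.9% of all counts passed. With TMM factors they were fitted in R 4.3.3 with edgeR 4.0.16 (limma 3.58.1), 1 mean per group with the legacy quasi-likelihood estimates. The threshold was a Benjamini-Hochberg adjusted p-value under 0.05 over all tested genes. A standard error is the log2 change over the square root of F. CPM values are per fish, and logCPM has a prior count of 2. DESeq2 1.42.0 was the other tool. Totals of 4955114 to 23849931 counts limit low values. A p-value sets a difference against the spread among these fish, with 1 estimate per gene shared by the 6 groups. Groups can differ in spread, and for edil3a the SD of logCPM was 0.48 in NBH mild hypoxia and 2.39 in NBH control.

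The members and gene lists were chosen with earlier results of these data known. Population differences of the members get no p. Named are the members, nearest tested neighbours, the genes most alike by Pearson's r, and called genes of the lists. The latter were taken from the 3 with the largest change per list and comparison, and not all of these are named. Alternatives were DESeq2, no TMM, no filter, a replicate block, 29 fish without NBH severe hypoxia replicate 5, total count as covariate, and leaving out each fish. Replicates were no duplicates, as the lowest chi-square per gene within a group was 26.3. The fit was tested on simulated counts with 200 genes changed, all above a floor on mean level. At a log2 change of 1 it recovered 176 for the severe response and 112 for the severe population difference, with 6 and 2 false calls. At a log2 change of 2 it recovered 196 and 188, with 13 and 7 false calls. Each simulated gene had the same spread in all groups, so unequal spreads such as that of edil3a were not covered. Also not covered were genes under the floor, such as cd44b and lyve1b. The same holds for responses as widespread as the 35.6% and 38.2% of genes called here in mild and severe hypoxia.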

Additional observations from a re-analysis of the deposited data

Results flagged for a closer look

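In 30 sets of 5 fish, 5 genes in 6 groups, 3 fish lay far from the rest of their group by Dixon's test. For normally distributed values chance flags about 1 set in 20. The test was made on CPM without a log scale, and all 3 fish were the highest of their group, so that rate may not hold here. For layna, SC severe hypoxia replicate 5 had 3.85 CPM and the next fish 1.34 CPM. For edil3a, NBH mild hypoxia replicate 5 had 1.45 CPM and the next fish 0.639 CPM, and SC severe hypoxia replicate 5 had 58.1 CPM and the next fish 29.4 CPM.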

How the results depend on the processing

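Population differences of the 5 genes kept their direction under every alternative, and moves over 1.5 times or turned signs of their change with oxygen are given beside each gene. The genes were picked for these differences on the same fish, so nothing is read from the kept direction. The averaged ccn1 response to mild hypoxia kept its direction but missed the threshold with no filter (0.75, edgeR adjusted p 0.0513) and with total count as covariate (0.61, adjusted p 0.0833), and ranged from 0.54 to 0.83 without 1 fish. The edil3a response to severe hypoxia was -1.61 with the covariate (adjusted p 0.0839). That of layna to mild hypoxia ranged from -1.41 to -0.65 without 1 fish. Responses that were not called turned sign without TMM factors, to 0.145 (mild) and 0.172 (severe) for bace2 and 0.146 (severe) for osmr. Without SC control replicate 1 the bace2 responses were 0.18 and 0.08, and without SC mild hypoxia replicate 1 the mild one was 0.03. Leaving out 1 fish gave ranges of -0.36 to 0.18 and -0.45 to 0.08.

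Genes called between NBH and SC numbered 221 in control, 170 in mild and 996 in severe hypoxia. DESeq2 called 440 in control and 447 in mild hypoxia. Without TMM factors 359 were called in control, 93 higher and 266 lower in NBH against 120 and 101 with them, and the median of all genes shifted to -0.16. With 29 fish 269 and with the covariate 72 were called in mild hypoxia. Without 1 fish the control count ranged from 108 to 299. Dropping one fish at a time, it was 141, 120 and 135 for NBH control replicates 1, 2 and 4, and 137 and 108 for SC control replicates 1 and 3. The mild count ranged from 106 to 330, with 106 and 330 for NBH mild hypoxia replicates 2 and 3 and 107 for SC mild hypoxia replicate 2. The severe count ranged from 533 to 1102, with 606 and 533 for SC severe hypoxia replicates 1 and 2.

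Replicate numbers are shared between groups but did not pair the fish, since in 0 of 15 pairs of groups did all same-numbered fish correlate over 0.1 (range -0.24 to 0.22), and 12 of 75 fish correlated best with their own number. With the replicate block the averaged ccn1 response to mild hypoxia was 0.67 (edgeR adjusted p 0.079), and no other call among the 5 genes changed. The mild change of the layna difference was then -1.86. The cause of these changes was not tested. Depth limits the values under 1 CPM, which rest on few counts.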
